A study of Mus musculus with 2 samples.

Results

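The 8 genes described here encode receptors that steer leukocytes along chemical gradients: 5 chemokine receptors that signal (Ccr1, Ccr2, Ccr7, Cx3cr1, Cxcr4), the non-signalling chemokine receptor-like gene Ccrl2, and the formyl peptide receptors Fpr1 and Fpr2. They were chosen by name and not by a measured value, although with earlier results of these data known. They came from 55536 annotated genes, of which 22028 are protein-coding, and all 8 were found. RNA was sequenced from the nucleoplasmic fraction of bone-marrow-derived macrophages of C57BL/6J mice after 40 min with Lipid A at 100 ng/ml. Lipid A is the part of bacterial lipopolysaccharide that the receptor TLR4 senses. Ribosomal RNA was depleted before sequencing, so RNA without a poly(A) tail was kept. There was 1 group with 2 libraries, biological replicates 1 and 2 per the labels. Since both have the same donor label, their spread may be partly technical and smaller than that among animals. The labels give a starting quantity of 1 µg of RNA for replicate 1 and 500 ng for replicate 2, so input and replicate cannot be told apart. No genetic change is named in the labels, and sex and age were not collected. Untreated cells were not analysed here, so each value is a level under stimulation and not a response. Fewer cells that hold an RNA and less of it per cell cannot be told apart.

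These receptors sit in the cell membrane, and all but Ccrl2 pass the signal to inhibitory G proteins, which start calcium release, phosphoinositide signalling and actin remodelling. Arrestins and receptor kinases then switch the receptor off. Inflammatory chemokine receptors such as Ccr1 and Ccr2 bring monocytes and macrophages to injured tissue, Ccr7 guides cells to lymph nodes, Cxcr4 holds cells in bone marrow, and formyl peptide receptors sense bacterial peptides. In the nucleus, RNA of these genes is newly made or retained RNA, and its level need not follow that of the protein.

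The alignment-based tables held 19630046 expected counts in replicate 1 and 18434601 in replicate 2. All 10 macrophage markers were detected, that is, had at least 1 TPM, a length-corrected share of the library's transcripts, in both replicates, and their median was 274 TPM in replicate 1 and 150.0 TPM in replicate 2. Of 33 markers of monocytes, neutrophils, dendritic cells, T cells, B cells and NK cells, 2 were detected, the monocyte genes Ms4a4c and Chil3. Another 10 had 0 expected counts in both. The summed TPM of the 5 monocyte markers was 13.4 in replicate 1 and 9.49 in replicate 2, and that of the 9 neutrophil markers was 5.45 and 2.31. Their part in the receptor levels was not tested. Genes with an effective length under 200 nt took 62.7% of all gene TPM in replicate 1 and 74.0% in replicate 2, which lowers the TPM of every longer gene, the receptors included.

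Ccrl2 was by far the highest of the 8 genes, and RNA of 4 of them was detected. The detected genes were Ccrl2, Ccr1, Cxcr4 and Ccr2, which is 4 of 8 genes beside 40.0% of all protein-coding genes, so the count by itself sets them little apart. The summed level of the 8 genes was 212 TPM in replicate 1 and 126 TPM in replicate 2, and Ccrl2 alone made up 73.8% and 64.3% of it. Their median level was 1.98 TPM in replicate 1 and 1.54 TPM in replicate 2, beside 0.38 and 0.25 TPM for all protein-coding genes. In order of mean level the genes were Ccrl2, Ccr1, Cxcr4, Ccr2, Fpr2, Ccr7, Fpr1 and Cx3cr1. The replicate ranges of Ccr1 and Cxcr4 overlapped, although Ccr1 was above Cxcr4 within each replicate. Those of Ccr7 and Fpr1 overlapped too, and their order differed between the replicates, so these neighbours were not separated. The ranges of the other neighbours did not overlap. Fpr2 and Ccr7 were nonetheless apart by little, and their credibility intervals overlapped in both replicates.

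**Figure D1:**
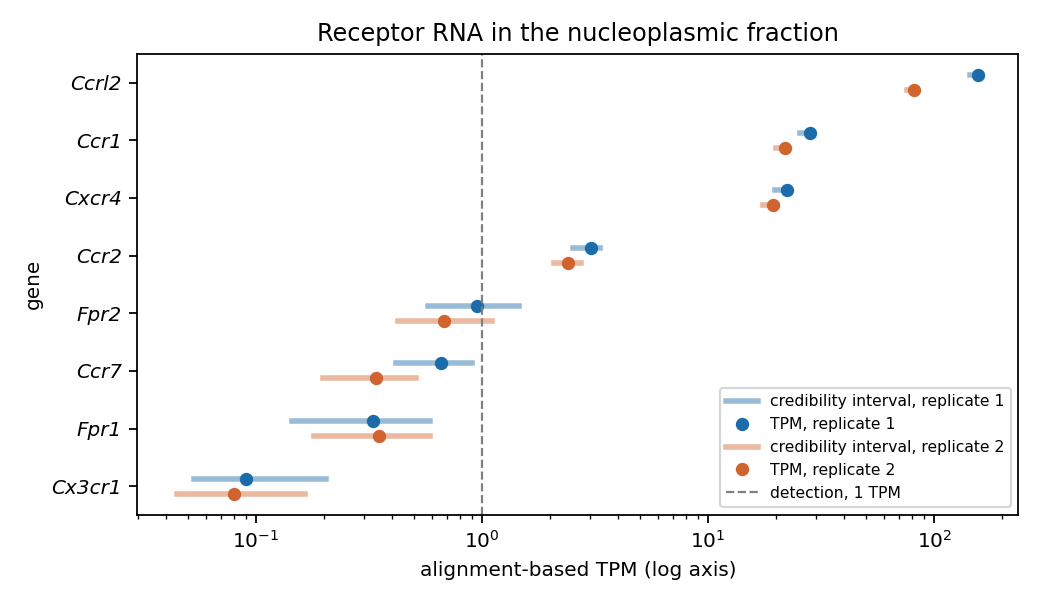
Alignment-based TPM (log axis) of the 8 receptor genes in both replicates (points), with the authors' credibility intervals (bars) and the detection level of 1 TPM (dashed line). Ccrl2 lies above 80 TPM in both, 3 further genes lie above 1 TPM, and Fpr2, Ccr7, Fpr1 and Cx3cr1 lie below it; the interval is centred on a posterior mean and can lie below the TPM of an abundant gene.

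Ccrl2 encodes an atypical receptor that binds the attractant chemerin without known signalling and presents it to the chemerin receptor Cmklr1 on other cells. It lies at chr9:111054486-111057519 on the minus strand (mm10). It had 157 TPM (6009 expected counts) in replicate 1 and 81.2 TPM (4516 expected counts) in replicate 2, a mean of 119 ± 53.4 TPM (SD, n = 2). That mean was 4.76 times that of Ccr1, the next gene, and ranked 307 among 22028 protein-coding genes, with 98.6% of them below. Replicate 1 was well above replicate 2 in TPM, and the authors' credibility intervals, 144 to 155 TPM and 76.1 to 81.4 TPM, did not overlap. These intervals cover counting error only. The log2 ratio of replicate 2 over replicate 1 was -0.94 in TPM + 1. It was smaller, at -0.31, in library-scaled counts after TMM scaling. The protein-coding genes with levels most like those of Ccrl2 in both libraries were Frmd4b (154 and 82.6 TPM in replicates 1 and 2), Mthfsl (149 and 82.0 TPM) and Litaf (166 and 85.7 TPM), by the larger of the 2 differences in log2(TPM + 1), which was 0.03, 0.07 and 0.08.

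Ccrl2 has 3 annotated models, which differ in their first exons and at their 3′ ends. Their sequences at the start of the shared non-coding exon are shown because they tell the models spliced there from the unbroken one. The lines below join 15 bases on each side, 5′ to 3′, with the start of the shared exon in capitals.
Ccrl2-201: tctttatctcgccagCTTGTCCTCGTGCTT
Ccrl2-202: acagctggctaagagCTTGTCCTCGTGCTT
Ccrl2-203: cttccatgttctctgCTTGTCCTCGTGCTT
In Ccrl2-201 the window is unbroken on the genome, whereas Ccrl2-202 and Ccrl2-203 splice into the same base, 111056882 of chromosome 9, from different first exons. Ccrl2-201 thus holds 388 bases that Ccrl2-203 splices out, and Ccrl2-202 holds 42 of them. Ccrl2-201 starts inside this intron of Ccrl2-203 and lacks the first exon of Ccrl2-203. The window thus cannot tell RNA that keeps the intron from RNA that starts within it.

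The RNA of Ccrl2 was divided mainly between Ccrl2-201, which starts within an intron of Ccrl2-203, and Ccrl2-203 itself. Both hold the same 1080 coding bases. Ccrl2-201 took 40.0% of the gene's TPM in replicate 1 and 58.3% in replicate 2, and Ccrl2-203 took 51.2% and 38.6%. Ccrl2-202, a short model with 399 annotated coding bases, took 8.76% and 3.07%. The leading model therefore differed between the replicates. In expected counts Ccrl2-201 hardly differed, with 3039 in replicate 1 and 3024 in replicate 2, while Ccrl2-203 had 2863 and 1468. The gap between the replicates thus lay mostly in counts assigned to Ccrl2-203. Ccrl2-201 ends 3033 bases from the gene's first annotated base and Ccrl2-203 ends at 2687, so 3′ reads can also bear on the assignment. These counts do not measure the leader alone. In the second set of deposited tables, computed directly from the reads (FASTQ-derived), Ccrl2-201 led in both replicates, with 45.9% and 57.8% of the TPM against 39.0% and 32.2% for Ccrl2-203.

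**Figure D2:**
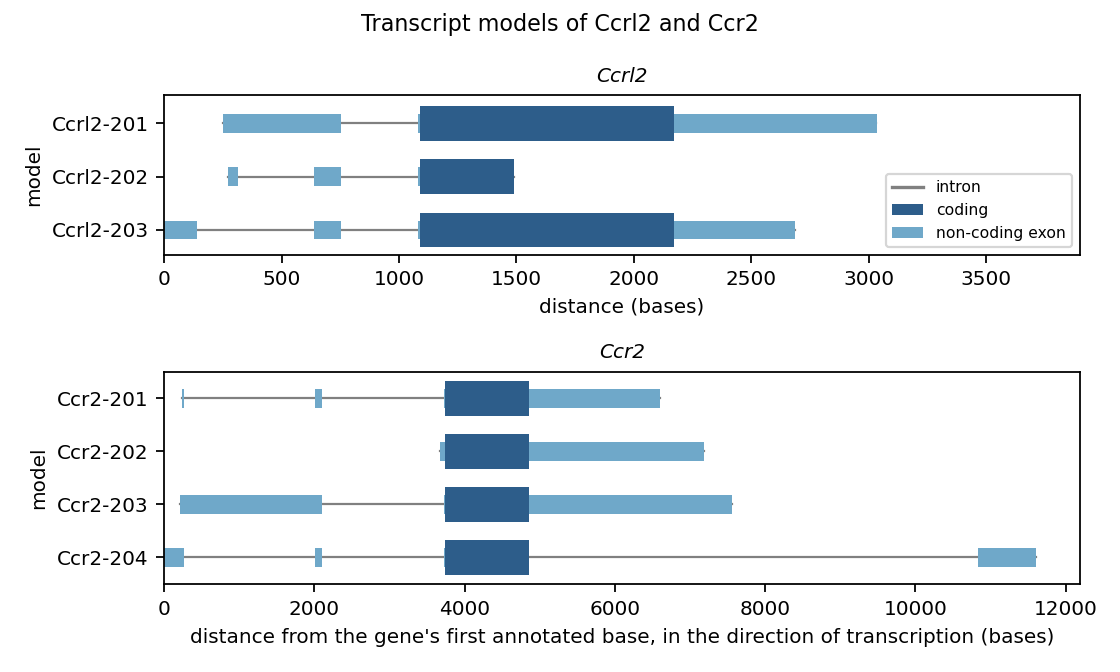
Annotated transcript models of Ccrl2 (top) and Ccr2 (bottom), drawn by distance in bases from the gene's first annotated base in the direction of transcription, with coding exon parts as tall dark bars, non-coding parts as low light bars and introns as lines. Ccrl2-201 and Ccr2-203 have a long first exon where other models have an intron, and Ccr2-202 starts just before the coding exon.

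Ccrl2-203 starts furthest upstream of the models. The 250 bases before its RefSeq start (GRCm38.p6, chr9:111057519-111057768, minus strand) are shown as those before the gene's first start. The capitals mark a match to the NF-kB consensus, the site bound by the main transcription factor family of the TLR4 pathway.
Ccrl2 promoter: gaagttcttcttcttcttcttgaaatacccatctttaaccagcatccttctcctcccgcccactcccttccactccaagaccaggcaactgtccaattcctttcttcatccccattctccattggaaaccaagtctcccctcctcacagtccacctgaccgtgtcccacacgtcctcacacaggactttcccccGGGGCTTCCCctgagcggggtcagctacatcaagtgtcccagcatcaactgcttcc
The match lies 56 bases before the start and reads as a match on both strands. Of 32851 RefSeq promoters of the same length, 2382 (7.25%) held a match on either strand, as did 2 of the 9 promoters of the receptor genes, this one and that of Ccr1. The promoters at the other starts of Ccrl2, that of Ccrl2-201 included, held none. A match is a description of the letters and shows no binding.

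Ccr1 and Ccr2, the inflammatory receptors of the CC chemokine family, differed widely in level. Ccr1 (chr9:123962124-123968692, minus strand), a receptor for Ccl3, Ccl5 and Ccl9, had 28.2 TPM (1595 expected counts) in replicate 1 and 21.8 TPM (1626 expected counts) in replicate 2, a mean of 25.0 ± 4.55 TPM (SD, n = 2). Ccr2 (chr9:124101950-124113557, plus strand), the receptor for Ccl2, Ccl7 and Ccl12 that marks inflammatory monocytes, had 3.02 TPM (240 expected counts) in replicate 1 and 2.41 TPM (263 expected counts) in replicate 2, a mean of 2.71 ± 0.43 TPM (SD, n = 2). Ccr1 was thus higher than Ccr2 in both replicates, at rank 1683 against 7129 among protein-coding genes. The start positions of both genes lie 0.14 Mb apart, and the genes between them were low too: Ccr3, the eotaxin receptor, had 3.87 TPM in replicate 1 and 3.26 TPM in replicate 2, and Ccr1l1, a Ccr1-like gene, had 1.07 and 0.86 TPM.

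In the alignment-based tables, most RNA assigned to Ccr2 fell on models that hold sequence upstream of the coding exon which other models splice out. The junction windows, with the shared start of the exon that holds the coding sequence in capitals, show the spliced form and the unbroken one.
Ccr2-201: tcatctgcaaaaacaAATCAAAGGAAATGG
Ccr2-202: gttctctgaccacagAATCAAAGGAAATGG
The first window is shared by Ccr2-201, Ccr2-203 and Ccr2-204, and the second is unbroken on the genome. Ccr2-202 holds 48 bases of the second upstream intron, and Ccr2-203 holds 1747 bases of the first and splices out the second. Together they took 77.5% of the gene's TPM in replicate 1 and 87.6% in replicate 2. In the FASTQ-derived tables the same models took 48.7% and 61.1%, so the size of the share depended on the table. Ccr2-201, a model with both upstream introns spliced out, took 17.5% in replicate 1 and 0.41% in replicate 2, and 48.9% and 29.9% in the FASTQ-derived tables. All 4 models share the same 1119 coding bases. They also differ at their 3′ ends. Ccr2-202 and Ccr2-203 end 7190 and 7557 bases from the gene's first annotated base, and Ccr2-201 ends at 6600. Whether the shares rest on the upstream sequence or on the 3′ ends was not tested.

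The models of Ccr2 held between 188 and 247 stretches of 31 bases that also occur in other genes, so the assignment of some of its reads is uncertain. Ccr1 shared 18 such stretches of 2803 with other genes, 17 of them with Ccr3.

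Cxcr4 and Ccr7, receptors for constitutively made chemokines, stood on opposite sides of the detection level. Cxcr4 (chr1:128588199-128592293, minus strand), the receptor for Cxcl12, had 22.3 TPM (751 expected counts) in replicate 1 and 19.4 TPM (856 expected counts) in replicate 2, a mean of 20.9 ± 2.02 TPM (SD, n = 2), at rank 2000. Ccr7 (chr11:99144196-99155077, minus strand), the receptor for Ccl19 and Ccl21 that guides dendritic cells and lymphocytes, had 0.66 TPM (25 expected counts) in replicate 1 and 0.34 TPM (17 expected counts) in replicate 2. Cxcr4 was detected and Ccr7 was not. The credibility interval of Ccr7, 0.42 to 0.90 TPM in replicate 1 and 0.20 to 0.51 TPM in replicate 2, lay below 1 TPM in both. Its place under 1 TPM depended on the scale, however. When TPM was rescaled to genes of an effective length of at least 200, the mean of Ccr7 was 1.54 TPM. Cxcr4-201 took 96.5% and 95.9% of the Cxcr4 TPM in replicates 1 and 2, and Cxcr4-202 the rest. No stretch of 31 bases of Ccr7-201, the only model of Ccr7, occurs in another gene.

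Fpr1 and Fpr2, neighbours on chromosome 17 with no gene annotated between them, gave only a few reads each. Fpr1 (chr17:17876471-17883940, minus strand), the high-affinity receptor for bacterial formyl peptides, had 0.33 TPM (8 expected counts) in replicate 1 and 0.35 TPM (11 expected counts) in replicate 2. Fpr2 (chr17:17887824-17893952, plus strand), which also binds annexin A1 and lipid mediators, had 0.95 TPM (18 expected counts) in replicate 1 and 0.68 TPM (17 expected counts) in replicate 2. Fpr2 was above Fpr1 in both replicates. Its credibility interval, 0.58 to 1.46 TPM in replicate 1 and 0.43 to 1.11 TPM in replicate 2, reached over 1 TPM, so at this depth Fpr2 cannot be placed above or below the detection level. The scale mattered too. When TPM was rescaled to genes of an effective length of at least 200, the mean was 2.58 TPM for Fpr2 and 1.12 TPM for Fpr1.

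The formyl peptide receptors share sequence with each other and with related genes, and how this bears on their few counts was not tested. Their coding sequences were 69.1% identical, the highest of the 28 pairs of the 8 genes, whose median was 52.6%, and Ccr1 and Ccr2 came next at 64.0%. The longest stretch common to Fpr1-201 and Fpr2-201 is 50 bases, shown as the part in which the 2 genes cannot be told apart by sequence.
Fpr1 and Fpr2: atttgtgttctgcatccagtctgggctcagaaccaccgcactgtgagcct
In Fpr2-201, 533 of 1103 stretches of 31 bases (48.3%) also occur in another gene, 487 of them in Gm5966 and 151 in Fpr3. These partners had almost no counts: Gm5966 had 0 in replicate 1 and 1 in replicate 2, and Fpr3 had 0 in both. In Fpr1-201, 20 of 1294 stretches were shared.

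**Figure D3:**
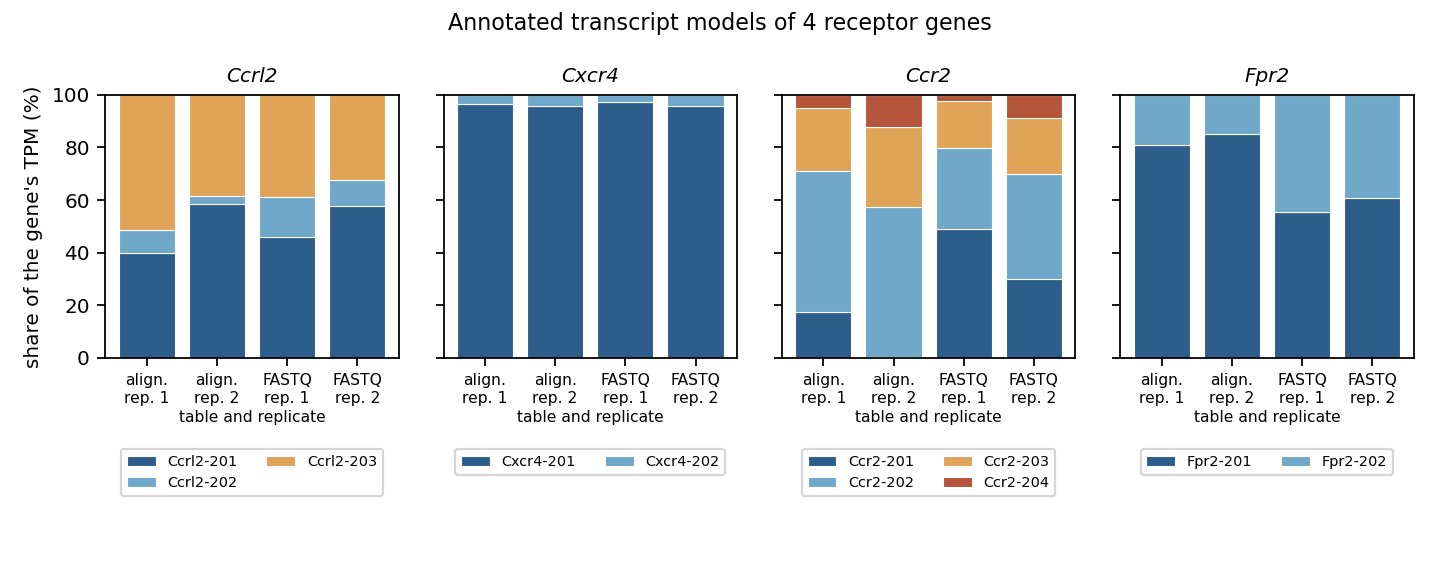
Share of the gene's TPM (%) in each annotated model of Ccrl2, Cxcr4, Ccr2 and Fpr2, by alignment-based (align.) and FASTQ-derived tables in replicates (rep.) 1 and 2; each bar sums to 100. Cxcr4-201 fills nearly all of each bar, while the shares of the Ccr2 models change with table and replicate.

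Cx3cr1 (chr9:119901616-120069879, minus strand), the receptor for the membrane-bound chemokine Cx3cl1 that marks patrolling monocytes and microglia, was the lowest of the 8 genes in the alignment-based tables. It had 0.09 TPM (7 expected counts) in replicate 1 and 0.08 TPM (8 expected counts) in replicate 2. In the FASTQ-derived tables it had 153 estimated counts in replicate 1 and 499 in replicate 2, which was 21.9 and 62.3 times the expected counts. The other 7 genes had between 1.12 and 2.49 times their expected counts. Over all detected protein-coding genes the median of this ratio was 1.31 in replicate 1 and 1.71 in replicate 2. A count at least 5 times as high in both replicates was thus found for 1 of the 8 genes, beside 4.58% of the 11771 protein-coding genes with at least 5 expected counts in both.

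By FASTQ-derived TPM, Cx3cr1 had 0.76 in replicate 1 and 1.65 in replicate 2 and took rank 5 of the 8 genes instead of rank 8. All of these counts were assigned to Cx3cr1-201. Of its 3723 stretches of 31 bases, 106 also occur in a total of 520 other genes. They lie between positions 2572 and 3522 of the model, all behind the coding part, which ends at position 1163. Their part in the higher count was not tested. Some exon sequence of Cx3cr1, 78 bases, overlaps the antisense gene Gm33858, which had 0 expected counts in both replicates. The 49 stretches of 31 bases shared with Gm33858 lie in Cx3cr1-203, a model with 0 counts in both kinds of table.

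**Figure D4:**
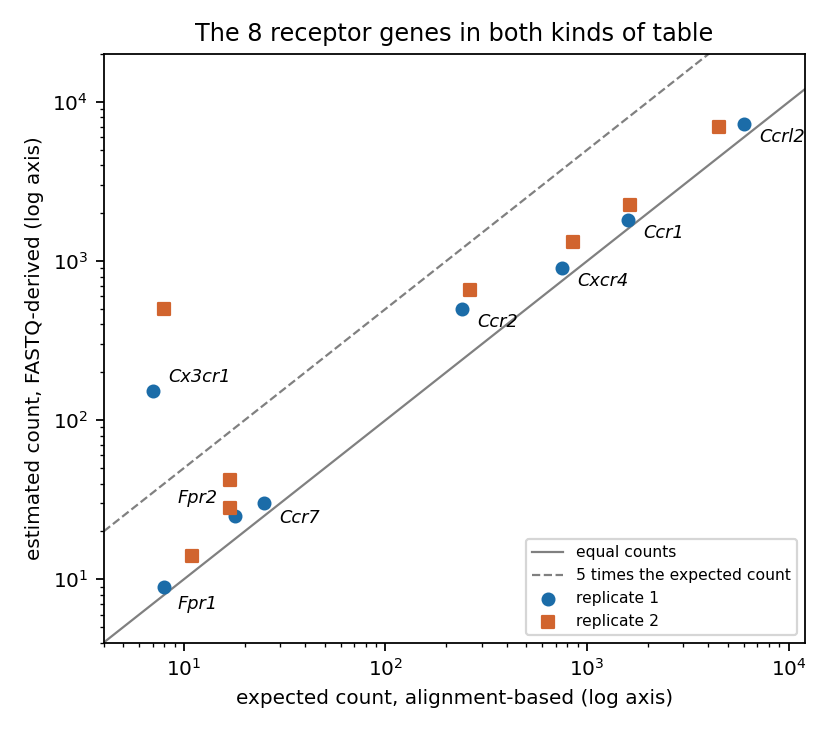
Estimated counts from the FASTQ-derived tables against expected counts from the alignment-based tables (both log axes) for the 8 receptor genes, with lines for equal counts and for 5 times the expected count. Cx3cr1 lies above the dashed line in both replicates, and the other 7 genes lie between the lines.

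Receptors of the same families outside the 8 genes were mostly low. Of 14 other chemokine receptors, 3 were detected, among them Ccr3 and Ccr9, the last a gut-homing receptor with 2.32 TPM in replicate 1 and 1.82 TPM in replicate 2. Ccr8, a receptor of T cell subsets, had 0 counts in both, which allows up to 0.14 TPM in replicate 1 and 0.11 TPM in replicate 2 (3 counts, for counting error only). Of 4 atypical chemokine receptors, which take up chemokines without G protein signalling, none reached 1 TPM. Ackr1 and Ackr3 had 0 expected counts in both, while Ackr3 had 7 and 8 FASTQ-derived counts in replicates 1 and 2. The 5 other formyl peptide receptors, Fpr3, Fpr-rs3, Fpr-rs4, Fpr-rs6 and Fpr-rs7, all had 0 counts in both.

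Receptors for other attractants reached higher levels, with 7 of 10 detected. C5ar1, the receptor for complement fragment C5a, had 143 TPM in replicate 1 and 88.0 TPM in replicate 2. C3ar1, the receptor for C3a, had 109 and 65.7 TPM, and Ptafr, the receptor for platelet-activating factor, had 59.0 and 40.6 TPM. C5ar1 was below Ccrl2 in replicate 1 and above it in replicate 2, so these genes were not separated. The lipid receptor S1pr1 had 8.09 and 7.67 TPM. The median of the 10 genes was 5.24 TPM in replicate 1 and 3.04 TPM in replicate 2.

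**Figure D5:**
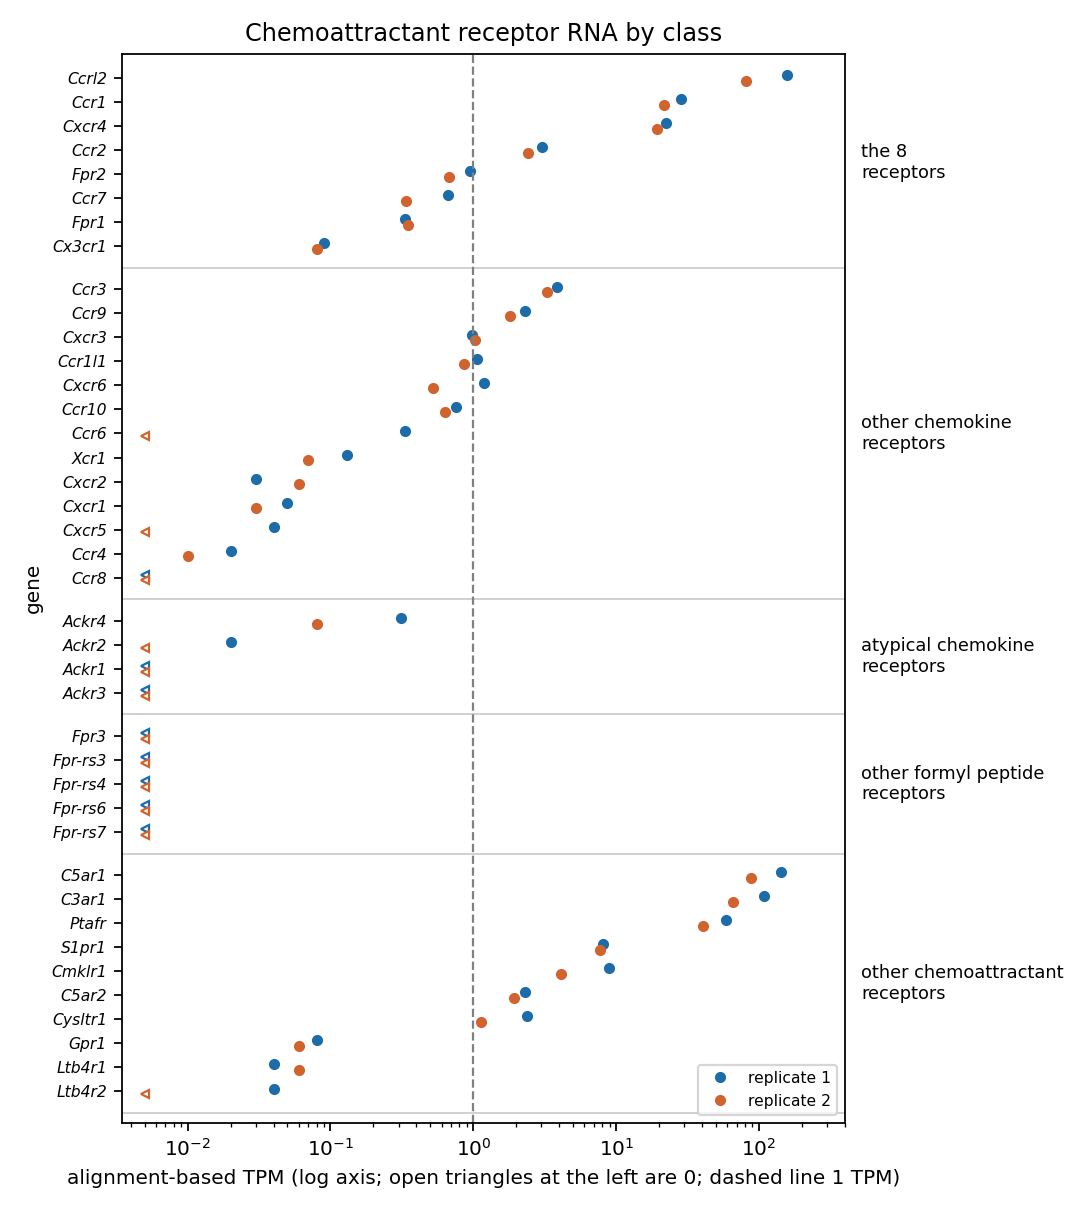
Alignment-based TPM (log axis) of the 8 receptor genes and of listed genes of 4 classes of related receptors in replicates 1 and 2, with 1 chemokine receptor not shown; open triangles at the left mark values of 0 and the dashed line marks 1 TPM. The other formyl peptide receptors are all at 0, whereas C5ar1, C3ar1 and Ptafr lie above Ccr1 in both replicates.

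RNA of ligands for the inflammatory receptors was abundant in the same libraries. The Ccr7 ligands Ccl19 and Ccl21a and the Cxcr4 ligand Cxcl12 were at 0 in the alignment-based tables. Of 13 ligand genes, 8 were detected. Ccl3, a ligand of Ccr1, had 423 TPM in replicate 1 and 431 TPM in replicate 2, and Ccl9, another, had 297 and 201 TPM. Ccl2 and Ccl7, ligands of Ccr2, had 442 and 252 TPM and 231 and 262 TPM in replicates 1 and 2. Cxcl12, Ccl19 and Ccl21a had 0 expected counts in both, while Mif, a cytokine that also binds Cxcr4, had 9.05 TPM in replicate 1 and 3.36 TPM in replicate 2. Ccl3, Ccl9, Ccl2 and Ccl7 were each higher than every one of the 8 receptor genes in both replicates.

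The genes that carry and end the receptor signal were nearly all detected. Of 17 G protein and effector genes, 16 were detected, and the list's median was 20.9 TPM in replicate 1 and 17.2 TPM in replicate 2. Pik3r5, a regulatory subunit of phosphoinositide 3-kinase gamma, led with 209 and 158 TPM, followed by the Rac activator Dock2 with 141 and 124 TPM, the G protein subunit Gnb2 with 53.7 and 37.0 TPM, and Elmo1, the partner of Dock2, with 41.4 and 40.6 TPM. Gnai1, an inhibitory G protein subunit, had 0 counts in both. The other inhibitory subunits listed were detected, Gnai2 with 29.8 and 23.7 TPM and Gnai3 with 16.5 and 12.7 TPM. Of 12 genes of receptor desensitisation, 11 were detected, led by Rgs1, which speeds the shut-off of G proteins, with 433 TPM in replicate 1 and 277 TPM in replicate 2. The arrestins Arrb2 (105 and 68.5 TPM) and Arrb1 (34.9 and 22.4 TPM) and the receptor kinase Grk2 (23.9 and 20.7 TPM) followed. Over all 7 lists, 45 of 75 genes were detected.

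The replicates were set against each other as the log2 ratio of replicate 2 over replicate 1 in library-scaled counts after TMM scaling, a comparison of 2 libraries with no test. Of the 6 receptor genes whose expected counts averaged 10 or more, 0 lay 2-fold or more apart, beside 3.19% of the 11348 protein-coding genes that passed the same filter. The log2 ratio was -0.31 for Ccrl2, 0.13 for Ccr1, 0.29 for Cxcr4, 0.23 for Ccr2, -0.44 for Ccr7 and 0.01 for Fpr2. Ccrl2 and Ccr7 were thus lower in replicate 2 and Ccr1, Cxcr4 and Ccr2 were higher. Among the 2524 protein-coding genes with at least 1000 expected counts on average, which include Ccrl2 and Ccr1, the quantiles at 2.5% and 97.5% were -0.51 and 0.49, and both genes lay between them. On the scale of log2(TPM + 1), where the median of all tested genes was -0.36, Ccrl2 was at -0.94, and Ccr1, Cxcr4, Ccr2 and Fpr2 turned to -0.36, -0.19, -0.24 and -0.22. Fpr1 and Cx3cr1 did not pass the filter.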

How the data were processed

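Total RNA-seq of the nucleoplasmic fraction was available for 2 libraries of 1 group. Per the labels and file headers, the tables use mm10 and GENCODE M21. The sources used here do not give the aligner, the quantifiers or the strand setting. The deposited alignment-based tables give expected counts, TPM, FPKM and a posterior mean TPM with the bounds of a credibility interval. The deposited FASTQ-derived tables give estimated counts and TPM per transcript, which were summed per gene. Depth was 19630046 and 18434601 expected counts in replicates 1 and 2; intervals and limits cover counting error only.

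The 8 genes and the 14 gene lists were chosen with earlier results of these data known. Genes with 1 TPM or more in each replicate were called detected. Expected counts were rounded for the ratio between replicates, taken with edgeR 4.0.16 in R 4.3.3 (TMM, prior count 1) after a filter at a mean expected count of 10 and tested on simulated data; DESeq2 1.42.0 size factors were an alternative. Shared stretches of 31 bases were counted in the GENCODE M21 transcripts, and promoters came from RefSeq (GRCm38.p6); no entry was used for Ccr7. Named were all 8 genes, up to 4 of the highest detected genes of a list, list genes at 0, genes between neighbouring receptors and the 3 genes most like Ccrl2. Ccr1 and Ccrl2 lie 12.9 Mb apart with 292 genes between them, so the genes between Ccr1 and Ccr2 were named instead. Gm5966 and Gm33858 were named after their values were seen, for the sequence they share, and Mif as a further Cxcr4 ligand. Gnai2 and Gnai3 were likewise named after their values were seen, to stand beside Gnai1. No test between groups was possible with 1 group. For 1 listed chemokine receptor no values are reported here.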

Additional observations from a re-analysis of the deposited data

How the results depend on the processing

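The count of 4 detected receptor genes was 7 at a threshold of 0.1 TPM; under the other alternatives it lay between 3 and 6, with 6 when TPM was rescaled to genes of an effective length of at least 200, and it was 4 without either replicate. The 45 detected pathway genes became 28 at a threshold of 10 TPM and lay between 36 and 50 otherwise, with 46 to 47 when 1 replicate was left out. Of the receptor genes, 0 were 2-fold apart between replicates, and 1 (Cx3cr1, log2 ratio 1.36) in the FASTQ-derived estimated counts; the cause was not tested. FASTQ-derived TPM moved the level of 7 of the 8 genes by more than 1 SD. It was lower for most detected protein-coding genes, with a median ratio to alignment-based TPM of 0.56 and 0.70 in replicates 1 and 2. By mean level Ccrl2, Ccr1, Cxcr4 and Ccr2 stayed the 4 highest in that order by each measure. Ccr1 and Cxcr4 were nearly equal in FASTQ-derived TPM of replicate 2, however, both at 10.1. Rescaled TPM moved all 8, since it leaves out short genes. For 7 of 14 model shares the FASTQ-derived tables moved the share by more than 1 SD. With 2 libraries an SD is itself uncertain. No paired analysis was possible because there was 1 group. Depth limits the 4 genes under 1 TPM, which had 7 to 25 expected counts.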
